A study of Mus musculus with 3 samples.

Results

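The 9 genes described here, measured as RNA in SB28 cells, belong to the vitamin A pathway, from the uptake of retinol to the receptors for retinoic acid. They are the binding proteins Crabp1 and Crabp2, the retinol transporter Stra6, the synthesis enzymes Aldh1a2 and Aldh1a3, the clearance enzyme Cyp26b1 and the receptors Rara, Rarb and Rarg. They were taken by symbol from the 24421 genes of the deposited count tables, and all 9 were present. Crabp1 was selected on its mean level in these same libraries, being among the 20 most abundant transcripts, so its high level is given as a description and supports nothing. By mean level it ranked 15th, and the genes at the edge of that choice were Lgals1 at rank 20 (2339 ± 119 counts per 1000000 assigned counts, CPM) and S100a6 at rank 21 (2204 ± 35.2 CPM, SD, n = 3).

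Retinol enters some cells through Stra6, is oxidised to retinal by dehydrogenases, and retinal is oxidised to retinoic acid by the Aldh1a enzymes. In the cytosol retinoic acid is held by Crabp1 or handed to the nucleus by Crabp2, and Cyp26 enzymes degrade it. In the nucleus it binds the receptors Rara, Rarb and Rarg, which sit on DNA as dimers with an RXR receptor. In the brain this pathway is known for patterning the hindbrain and for driving neuronal differentiation, and retinoic acid has long been studied as a differentiating agent for glioma cells.

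SB28 is a mouse glioblastoma model line on the C57BL/6 background, with brain given as its source. The data are RNA-seq counts of 3 libraries of this line, all of 1 group, and the labels name no control, treatment, time or age, nor whether the replicates were separate cultures. The SDs below therefore measure no more than how far these 3 samples lie apart, and that spread may be technical. The p-values set the counts of a gene against counting noise, alone or with the spread over all genes added. They depend on the number of counts as well as on the distance between samples, and reach no further than these samples. Every level is also a mean over bulk cells, in which fewer expressing cells and less RNA per cell cannot be told apart.

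The libraries held between 28990128 and 36019009 counts assigned to genes. Replicates 1 and 2 lay close together, with 1.98% of 12746 genes differing between them beyond counting noise, while replicate 3 differed from replicate 1 in 64.1% and from replicate 2 in 62.8% of genes. The glioma markers Vim (5404 ± 100.1 CPM), Nes (427 ± 20.2 CPM), Sox2 (113 ± 2.85 CPM) and Sox9 (27.3 ± 5.88 CPM) were present, whereas the astrocyte filament gene Gfap and the lineage factor Olig2 had 0 counts. None of 8 leukocyte markers and none of 4 erythroid markers reached 1 CPM, and Cd3e, Aif1, Hba-a1, Hbb-bs and Alas2 were among those that had 0 counts. Of 6 endothelial markers, 3 were detected (Cdh5 at 351 ± 42.2 CPM, Flt1 at 78.0 ± 33.1 CPM and Kdr) and Cldn5 had 0 counts, and of 6 neuron markers only Tubb3 was detected and Rbfox3 had 0 counts.

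The promoter of Crabp1 is shown because this gene supplied most of the counts of the 9 genes, and the retinoic acid response element of Rarb because that receptor gene is the textbook example of a gene that retinoic acid switches on. Both sequences are from RefSeq for GRCm38.p6, read 5′ to 3′ on the strand of the gene. For Crabp1 the 250 bases before the transcription start are given (chr9:54764498-54764747, plus strand), with GC boxes, the letters GGGCGG on either strand, in capitals. For Rarb 29 bases are given (chr14:16575507-16575535, minus strand), with the element in capitals.
Crabp1: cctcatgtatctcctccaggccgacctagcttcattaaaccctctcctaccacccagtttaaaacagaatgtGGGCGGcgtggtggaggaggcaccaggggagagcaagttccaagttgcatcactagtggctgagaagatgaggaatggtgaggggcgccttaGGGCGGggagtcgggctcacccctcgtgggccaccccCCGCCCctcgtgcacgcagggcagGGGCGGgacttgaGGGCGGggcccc
Rarb: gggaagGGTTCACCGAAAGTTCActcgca

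The Crabp1 window held 5 GC boxes, and the letters TATAAA were not in it. Of 32851 windows of 250 bases before the starts in the same RefSeq table, 32.7% held a GC box and 8.47% held 3 or more. The Rarb element is a direct repeat with 5 bases between its parts (DR5). It was found by searching both strands for 2 half-sites with 5 bases of any kind between them, where a half-site was AGGTCA, or AGTTCA as in the Rarb element, or GGGTCA as a further variant, or GGTTCA as in that element. It lay 53 to 37 bases before the RefSeq start, while in GENCODE M21 all 29 printed bases lie within 2 annotated, overlapping exons of Rarb. Of the windows, 0.0883% held such a repeat. Since half-sites were taken from the Rarb element, the match in Rarb was fixed in advance and singles out nothing. Of the other members in the table, none had a DR5. Of all 7, 0 had the same repeat with 1 or 2 bases between its parts (0.164% and 0.174% of the windows). GC boxes were in at least 1 window of 5 of the 7, which had 14 windows in all, against 9555 of the 27025 genes with windows. TATAAA was in Cyp26b1 alone, against 3872 of the 27025 genes and 12.4% of the windows. Such matches describe letters in these windows and show neither binding nor a cause of the levels below.

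Among the 9 genes, 6 were detected, meaning at least 1 CPM in all 3 libraries, against 46.6% of all genes. The other 3, Stra6, Aldh1a2 and Rarb, lay below 1 CPM in every library. The median of the members' mean levels was 16.0 CPM, and that of all genes was 0.541 CPM. Crabp1 enters both the count and the median, and its detection was fixed by its selection, so both are descriptions.

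**Figure D1:**
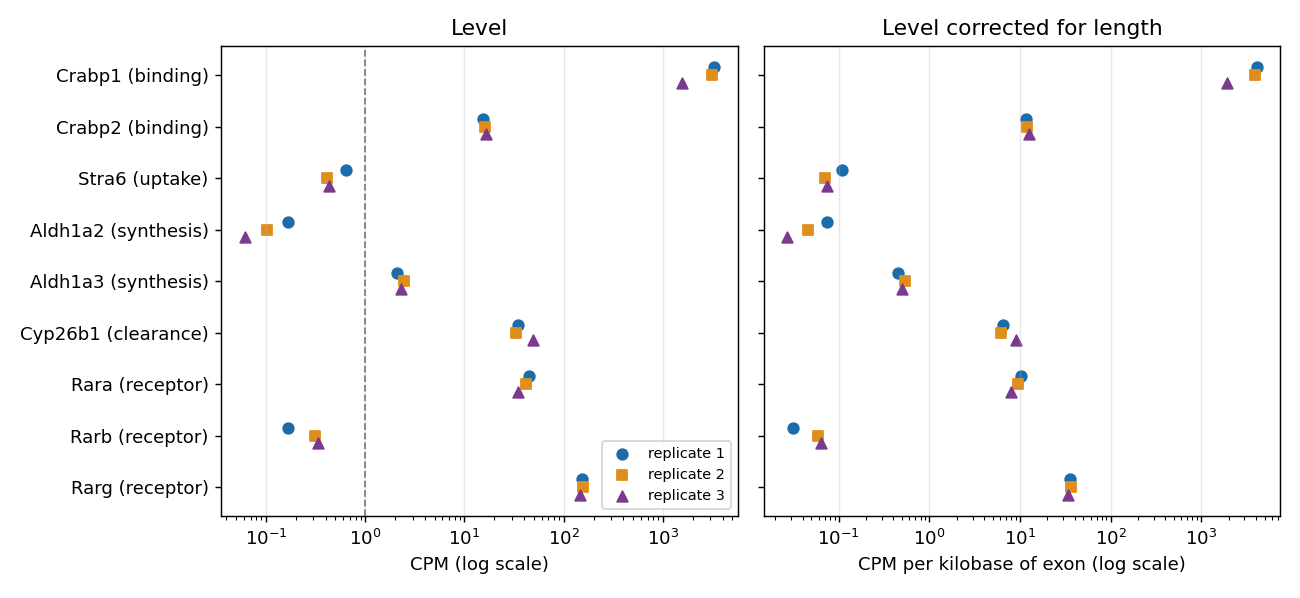
Level of each gene in each library, as CPM (left) and as CPM per kilobase of exon (right), both on log scales, with 1 point per replicate and the role of the gene in brackets. The dashed line marks 1 CPM. Crabp1 lies far right of all others, and Stra6, Aldh1a2 and Rarb lie left of the line in all 3 libraries.

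Crabp1 encodes the cellular retinoic acid binding protein that keeps retinoic acid in the cytosol, and it lies on chromosome 9 at 54764748 to 54773110 with 4 exons. It held 119118, 91490 and 50445 counts in replicates 1, 2 and 3, or 3307, 3156 and 1546 CPM. It was high in all 3 libraries and lowest in replicate 3. It made up 0.331%, 0.316% and 0.155% of the counts of the libraries, and ranked 13th, 13th and 37th among all genes. By mean level its neighbours in rank were the ubiquitin ligase gene Nedd4 (2835 ± 250.4 CPM) and the fibronectin gene Fn1 (2611 ± 444 CPM), both within the spread of Crabp1 (2669.6 ± 976 CPM).

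The transcript of Crabp1 is short, with 802 bases of exon, so that its place was higher still per length. At 3329 ± 1217 CPM per kilobase it ranked 3rd of 24019 genes with a known length. Above it stood the elongation factor Eef1a1 (4048 ± 382 CPM per kilobase) and the osteopontin gene Spp1 (3641 ± 1258 CPM per kilobase), and below it Lgals1 (2591 ± 132 CPM per kilobase). It ranked 3rd in replicates 1 and 2 and 6th in replicate 3. None of the 753 stretches of 50 bases in its transcript occurred letter for letter in the transcripts of another annotated gene. Copies with scattered mismatches or outside the annotation were not searched for.

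**Figure D2:**
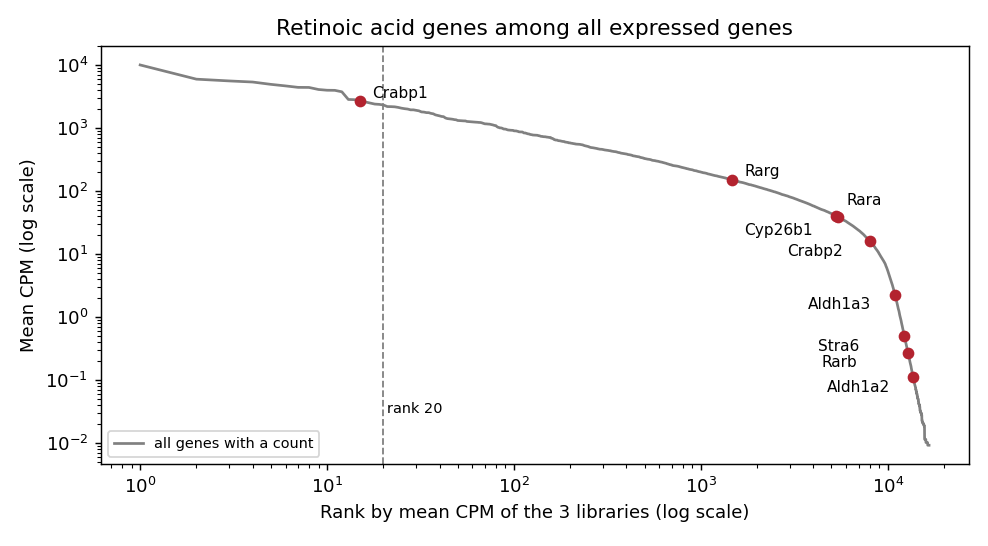
Mean CPM of all genes with a count against their rank, both axes on log scales, with the 9 retinoic acid genes as red points. The dashed line marks rank 20. Crabp1 stands at rank 15, Rarg at 1473, and the other 7 from rank 5271 downwards.

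Crabp2 is the paralogue that carries retinoic acid to the nuclear receptors. It lies on chromosome 3 at 87948666 to 87953376, and its coding sequence was identical to that of Crabp1 in 70.8% of aligned positions, with no shared run over 11 bases. Its level was 15.2, 16.0 and 16.6 CPM in replicates 1, 2 and 3, and the libraries lay close together. Per base, Crabp1 stood 261-fold above Crabp2 (range over libraries 153 to 357), and 158-fold above it without correction for length. This difference of 8.03 ± 0.67 on the log2 scale is a description, since Crabp1 was picked for its level.

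The family of small intracellular lipid binding proteins, to which both belong, was uneven in level. Of 15 members, 4 were detected, Crabp1, Fabp5 and Crabp2 among them, or 26.7% against 46.6% of all genes. A further 10 lay below 1 CPM in all libraries. Fabp5, which can carry retinoic acid to the receptor Ppard, stood at 29.4, 31.0 and 29.1 CPM. Per base, Crabp2 lay 1.44-fold above Fabp5 (range 1.39 to 1.54), larger than the spread between libraries, but without correction for length Crabp2 lay below it, at 0.534-fold.

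Stra6, the membrane receptor that takes up retinol from its plasma carrier, was close to absent. It lies on chromosome 9 at 58063788 to 58153996 and had 23, 12 and 14 counts, or 0.639, 0.414 and 0.429 CPM. Pooled over libraries this was 0.502 CPM (exact 95% interval 0.371 to 0.663, counting error only). Replicate 1 was highest, and the 3 counts did not differ beyond counting noise (chi-square test, adjusted p = 0.405).

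Of 14 genes for uptake, transport and storage of retinol, 5 were detected, or 35.7% against 46.6% of all genes. The lipoprotein receptor genes Scarb1 (129, 124 and 94.9 CPM) and Lrp2 (62.1, 75.7 and 165 CPM) led the list, with the retinol saturase Retsat (24.7, 23.4 and 31.7 CPM) and the acyltransferase Dgat1 (14.6 ± 0.381 CPM) next. The plasma carrier genes Rbp4 and Ttr, the intestinal carrier Rbp2 and the retinol esterifying enzyme Lrat had 0 counts throughout. At a floor of 3 counts this allows up to 0.103 CPM for each in the shallowest library. The median of the list was 0.0752 CPM.

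The 2 synthesis enzymes were low. Aldh1a2, the main retinal dehydrogenase of the embryo, lies on chromosome 9 at 71215789 to 71296243 and had 6, 3 and 2 counts. Pooled over libraries it stood at 0.113 CPM (exact 95% interval 0.0562 to 0.202, counting error only), too few counts to order the libraries. Aldh1a3, the form known from the eye and nose and from mesenchymal glioma stem cells, lies on chromosome 7 at 66390890 to 66427517 and had 75, 72 and 75 counts, or 2.08, 2.48 and 2.30 CPM. It passed 1 CPM in each library, at percentile 4.14 of the 11379 detected genes, and the libraries did not differ beyond counting noise (chi-square test, adjusted p = 0.620). Aldh1a3 lay 9.50-fold above Aldh1a2 per base (range 5.70 to 14.8), 19.4-fold without correction for length, and 4.55-fold with 5 in place of 0.5 added to each count. The difference of 3.25 ± 0.69 on the log2 scale was larger than the spread between libraries.

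The third enzyme of this kind, Aldh1a1, had 6, 4 and 10 counts, and its close relative Aldh1a7 19, 12 and 19 counts. Of the 15 dehydrogenases and reductases that convert retinol and retinal into each other, 9 were detected, or 60% against 46.6% of all genes. Their median was 1.93 CPM. Adh5 (103, 102 and 117 CPM), Rdh11 (69.6, 69.5 and 39.7 CPM), Adh7 (14.6, 14.3 and 37.3 CPM) and Rdh13 (17.7, 18.0 and 22.9 CPM) led them. Rdh10, chosen after its values were seen because it is the main retinol dehydrogenase of the mouse embryo, stood at 17.6 ± 0.969 CPM. Rdh16, Adh4 and Sdr16c5 had 0 counts.

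Cyp26b1 encodes the hydroxylase that starts the breakdown of retinoic acid, and it was the one member of its family above 3 counts. It lies on chromosome 6 at 84571414 to 84593908 and held 1238, 967 and 1592 counts, or 34.4, 33.4 and 48.8 CPM. Replicate 3 was highest, and replicates 1 and 2 did not differ beyond counting noise (chi-square test, adjusted p = 0.846 without replicate 3). Of its relatives, Cyp26a1 had 1 count in all and Cyp26c1 had 3. Over the pooled libraries the ratio of Cyp26b1 to Cyp26a1 per base was 1407 (exact 95% interval 252 to 55582, counting error only). Averaged within libraries, with 0.5 added to each count, it was 637-fold (range 306 to 1180), and 86.8-fold with 5 added, so that its size rests on the single count of Cyp26a1. Per base, Cyp26b1 lay 14.4-fold above the synthesis enzyme Aldh1a3 (range 11.5 to 18.2), larger than the spread between libraries.

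Of the 8 other enzymes that make or break down retinoic acid, only Cyp1b1 was detected, or 12.5% against 46.6% of all genes. Cyp1b1, a cytochrome that can oxidise retinol and retinal, stood at 20.2, 20.9 and 71.3 CPM, and Cyp1a1, a related enzyme, at 0.389, 0.207 and 18.4 CPM, with replicate 3 highest for both. Cyp2s1 reached 1.19, 0.828 and 1.04 CPM. The median of the list was 0.356 CPM.

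Among the receptors Rarg was highest. It lies on chromosome 15 at 102234938 to 102257517 and held 5533, 4503 and 4723 counts, or 154, 155 and 145 CPM in replicates 1, 2 and 3. The libraries lay within 1.07-fold of each other, and the level stood at percentile 87.1 of the detected genes. Rarg is the form prominent in skin, cartilage and undifferentiated embryonic cells.

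Rara, the most widely expressed form in the mouse, lies on chromosome 11 at 98927818 to 98974942 and stood at 44.4, 42.0 and 35.0 CPM, lowest in replicate 3. Per base, Rara was at 0.260-fold of Rarg (range 0.236 to 0.282), a difference of −1.94 ± 0.13 on the log2 scale that was larger than the spread between libraries. Rarg took 77.9%, 79.0% and 80.8% of the summed receptor level per base in replicates 1, 2 and 3, and Rara 22.0%, 20.8% and 19.1%. The pair's coding sequences shared no run over 24 bases and matched in 71.8% of aligned positions.

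Rarb, whose response element is printed above, was near 0, with 6, 9 and 11 counts, or 0.167, 0.310 and 0.337 CPM. It lies on chromosome 14 at 16430839 to 16819156. Pooled over libraries it stood at 0.266 CPM (exact 95% interval 0.174 to 0.390, counting error only), and it took 0.0684%, 0.128% and 0.152% of the summed receptor level per base. Per base, Rarb lay at 0.00147-fold of Rarg (range 0.000951 to 0.00197) and at 0.00566-fold of Rara (range 0.00337 to 0.00834). Both differences were larger than the spread between libraries. Its 3′ part overlaps the gene Top2b on the opposite strand, with 1793 of 5265 exon bases shared. Reads from the shared bases are ambiguous to a counter that does not use the strand, and the strand setting is not given in the sources used here. With those bases taken off its length, Rarb lay at 0.00223-fold of Rarg and 0.00859-fold of Rara, and with 5 in place of 0.5 added to each count it lay at 0.00223-fold of Rarg and 0.00854-fold of Rara.

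The partners of these receptors were present. Rxra stood at 79.5, 76.2 and 73.2 CPM and Rxrb at 41.0, 38.3 and 38.8 CPM, while Rxrg had 0 counts. Rara lay at 0.661-fold of Rxra per base (range 0.599 to 0.700), larger than the spread between libraries. Ppard, the receptor served by Fabp5, stood at 68.4, 66.6 and 60.1 CPM. All 14 corepressors and coactivators were detected, against 46.6% of all genes, with a median of 81.8 CPM. Among them were the corepressor Ncor1 (231 ± 5.27 CPM), the methyltransferase Carm1 (188 ± 17.8 CPM) and the acetyltransferase Ep300 (145 ± 14.0 CPM).

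Of 19 genes known to respond to retinoic acid in embryonic or cultured cells, 9 were detected, or 47.4% against 46.6% of all genes. Of the others, 1 passed 1 CPM in part of the libraries and 9 in none. The median of the list was 1.47 CPM. Among the detected were the orphan receptor Nr2f2 (129, 125 and 133 CPM), the repressor Bhlhe40 (74.5, 72.9 and 28.4 CPM) and the homeobox gene Meis2 (45.6, 47.5 and 57.3 CPM). Of the Hox genes on the list, Hoxb1, Hoxa4, Hoxb4, Hoxa5 and Hoxb5 had 0 counts. Cdx1 and Rarres2 also had 0 counts, and Dhrs3, a retinal reductase gene of the dehydrogenase list that retinoic acid induces, had 0, 1 and 2. The Hox genes, Cdx1, Rarres2 and Dhrs3 are named after their values were seen.

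**Figure D3:**
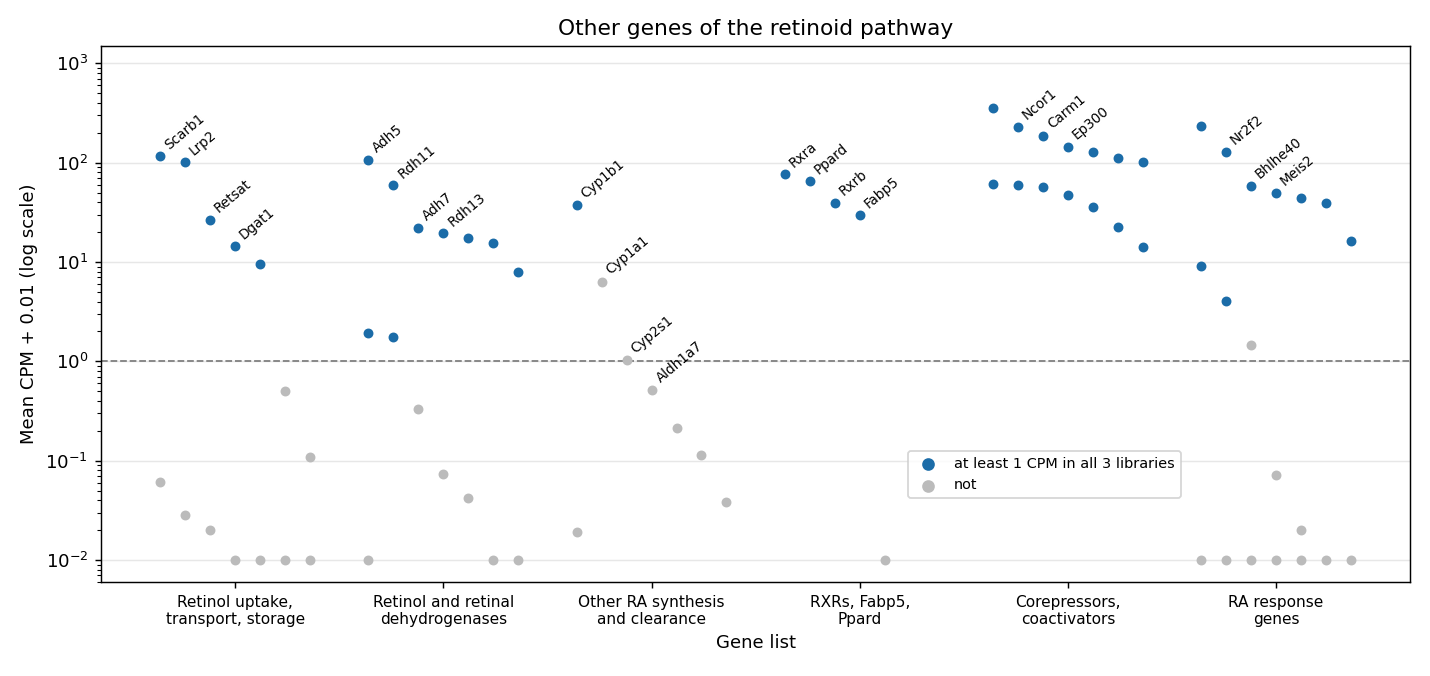
Mean CPM plus 0.01 (log scale) of the genes of 6 lists of the retinoid pathway, 1 point per gene, with up to 4 of the higher genes of each list named (RA, retinoic acid). Blue points were at least 1 CPM in all 3 libraries, grey ones were not, and the dashed line marks 1 CPM. All 14 corepressors and coactivators are blue, and points at the bottom are genes with 0 counts.

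Ordered by level per base, the members ran from Crabp1 (3329 ± 1217 CPM per kilobase) through Rarg (35.5 ± 1.33), Crabp2 (12.1 ± 0.529), Rara (9.27 ± 1.12), Cyp26b1 (7.26 ± 1.61), Aldh1a3 (0.496 ± 0.0435) and Stra6 (0.0847 ± 0.0215) to Rarb (0.0515 ± 0.0174) and Aldh1a2 (0.0488 ± 0.0234). Neighbours were called apart when the log2 ratio had the same sign in all 3 libraries and its mean exceeded 2 SD. Crabp1 lay 88.8-fold above Rarg (range 56.7 to 114), and 16.7-fold without correction for length, a description with no call since Crabp1 was selected on its level. Rarg lay 2.94-fold above Crabp2 (range 2.70 to 3.12), and 9.47-fold without correction for length. Aldh1a3 lay 5.80-fold above Stra6 (range 4.06 to 7.32), and both differences were larger than the spread. Of the other pairs of neighbours, Crabp2 and Rara, Rara and Cyp26b1, Stra6 and Rarb, and Rarb and Aldh1a2 did not differ beyond the spread. Crabp2 over Rara was 0.39 ± 0.24 on the log2 scale, but 0.53 ± 0.24 with the length of the longest transcript and −1.34 ± 0.24 without correction for length, both past 2 SD. With 3 libraries an exact sign-flip permutation test cannot go below p = 0.25, so no p is given for any ratio.

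For each gene a chi-square test asked whether its 3 counts, scaled by TMM, lay further apart than counting noise allows. It was adjusted by Benjamini-Hochberg over all 12737 genes averaging 10 or more counts. Of the members, 7 could be tested, and Rarb and Aldh1a2 were too low. Of the 7, 4 differed between libraries, against 65.8% of all genes tested. Of these 4, Crabp1, Rara and Rarg were lowest in replicate 3 and Cyp26b1 was highest there. Of the 8387 genes that differed, 4116 were lowest in replicate 3 and 4122 were highest there. These were 32.3% and 32.4% of all genes tested. Crabp1 had a chi-square statistic of 23397, and the adjusted p was 6.32e-27 for Cyp26b1, 1.05e-08 for Rara and 0.00251 for Rarg in the same chi-square test. Crabp2, Stra6 and Aldh1a3 did not pass it.

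The sizes of these differences were unequal. Crabp1 differed 2.14-fold between its highest and its lowest library, Cyp26b1 1.46-fold, Rara 1.27-fold and Rarg 1.07-fold. At least 2-fold was reached by 1 of the 7 members, against 8.93% of all genes tested, and at least 1.5-fold by 2 of the 7, Crabp1 and the sparsely counted Stra6, against 22.9%. The median over the 7 was 1.27-fold, and over all genes tested 1.23-fold. Among the 100 most abundant genes, 4 reached 2-fold, and Crabp1 had the second largest difference.

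With the spread between these libraries over all genes added to counting noise, as edgeR's common dispersion of 0.0278, 0 of the 7 members and 2.3% of all genes passed. The adjusted p for Crabp1 was then 0.193 (unadjusted 0.00843), and 1 of the 7 had an unadjusted p under 0.05. Without replicate 3, 1 of the members differed, Crabp1, by 1.05-fold (adjusted p = 2.88e-24 in the chi-square test against counting noise). The calls for Cyp26b1, Rara and Rarg were not made without replicate 3.

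**Figure D4:**
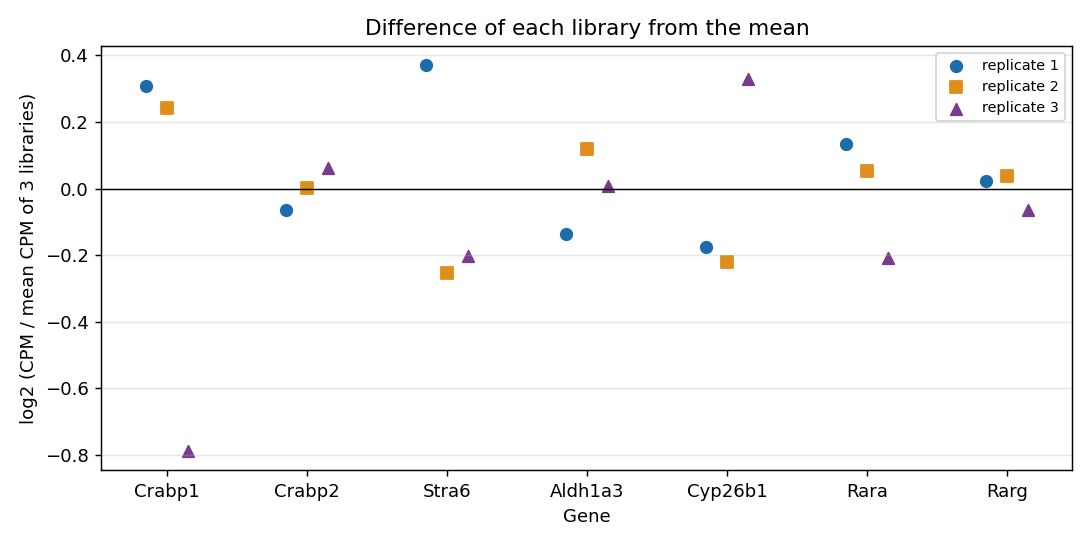
Difference of each library from the mean of the 3, as log2 of CPM over mean CPM, for the 7 tested members, with 1 point per replicate. Crabp1 in replicate 3 lies farthest from 0, and Cyp26b1 is the one of the 4 called genes that is highest in replicate 3.

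The 8 members other than Crabp1 summed to 251, 249.9 and 248 CPM in replicates 1, 2 and 3, so the summed level of all 9 (3558, 3406 and 1794 CPM) followed Crabp1. Crabp1 held 93.0%, 92.7% and 86.2% of the counts of the 9 genes. The endothelial markers summed to 478, 471 and 346 CPM and the neuron markers to 23.0, 22.0 and 17.5 CPM, lowest in replicate 3 as well. The endothelial sum was mostly Cdh5 and Flt1, and Kdr went the other way (1.11, 1.07 and 2.64 CPM). The neuron sum was mostly Tubb3 (21.2, 20.6 and 17.2 CPM). The part of these markers in the difference of Crabp1 was not tested. The leukocyte markers summed to 0.611, 0.276 and 0.797 CPM.

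In the other parts of the pathway the differences between libraries ran both ways. The counts below stand against 65.8% of all tested genes that differed, 32.3% that differed and were lowest in replicate 3, and 32.4% that differed and were highest there. Of 10 tested dehydrogenases and reductases, 6 differed, 5 of them highest and 1 (Rdh11) lowest in replicate 3. Of 6 tested genes of uptake and storage, 3 differed, with Lrp2 and Retsat highest and Scarb1 lowest in replicate 3. Of 14 corepressors and coactivators, 10 differed, 5 highest and 5 lowest there, by a median of 1.11-fold. Of 10 tested response genes, 9 differed, 4 highest and 4 lowest there. Rxra and Ppard were lowest in replicate 3, and Cyp1b1 and Cyp1a1 highest. With edgeR's common dispersion added, the chi-square test left Lrp2 (adjusted p = 0.00290), Adh7 (0.00127), Cyp1b1 (5.15e-07), Cyp1a1 (1.25e-32), Rarres1 (0.0377) and Bhlhe40 (0.0420) among the genes of these lists.

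For the members averaging 1000 or more counts, the genes of most similar profile were sought among the 6216 genes of that depth, by the Euclidean distance of log2(CPM over mean) across the 3 libraries. For Crabp1 these were Serinc5 (55.0, 52.6 and 25.9 CPM, distance 0.00599), Fads1 (326, 314 and 155 CPM, distance 0.0175) and Laptm4b (146, 139 and 69.6 CPM, distance 0.0259). For Cyp26b1 they were Mrps18b, Ngfrap1 and Tcof1, with distances up to 0.00641. For Rara they were Tmem57, Srebf1 and Sipa1, up to 0.00873. For Rarg they were Myh10, Tspan7 and Smad2, up to 0.00128. Such a likeness over 3 libraries is set mostly by replicate 3 and is a description.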

How the data were processed

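The deposited files hold raw counts per gene symbol for 3 SB28 libraries. Per the labels' protocols, an Illumina TruSeq RNA kit and 1 µg of total RNA went into each library. Bowtie2 2.2.4, HTSeq and the build mm10 stand in the submitters' processing notes, with no role or strand setting. The 5 summary lines of unassigned reads were left out of library sizes; reads without a gene were 5.19%, 5.27% and 6.54% of all lines, reads placed more than once 8.93%, 8.86% and 9.58%, in replicates 1, 2 and 3. PCR reads without molecular identifiers are not independent molecules, so intervals and floors cover counting error only.

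Symbols were matched to GENCODE M21 (GRCm38) for position and union exon length: 23350 directly, 669 through synonyms, 402 not. CPM used assigned counts. Ratios are log2(count + 0.5) per base within a library. TMM and the common dispersion came from edgeR 4.0.16, size factors from DESeq2 1.42.0, under R 4.3.3; the rest used Python 3.11.15, scipy 1.17.1 and Biopython 1.88. The chi-square test was tested on simulated data.

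The members and lists were chosen with earlier results of these data known. Named are the 9 members, the 4 highest genes of each list, RXR genes, genes of fixed pairs, genes at 0 counts where a list has at most 4, and the 3 most similar profiles per well-counted member. Alternatives were other scalings, filters, lengths, pseudocounts and detection limits, a dispersion term, and each replicate left out. Protein sequences were not used here. Some genes that the rule would name are not reported here.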

Additional observations from a re-analysis of the deposited data

How the results depend on the processing

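Without correction for length, Crabp2 over Rara turned to −1.34 (0.39 with it) and Crabp2 over Fabp5 to −0.90 (0.53), on the log2 scale, since the 2 genes of each pair differ in length. With the longest transcript Crabp2 over Rara was 0.53 and passed 2 SD. Leaving out each replicate in turn gave 0.26 to 0.49 for Crabp2 over Rara, 0.22 to 0.64 for Rara over Cyp26b1 and 0.22 to 0.98 for Stra6 over Rarb, each past 2 SD in at least 1 of the 3 settings. The count of genes differing between libraries was 8387 with all libraries, 240 to 8208 with 1 left out, and 293 with edgeR's common dispersion added; that of the members was 4, 1 to 4, and 0, with an adjusted p of 0.193 for Crabp1 and near 1 for Cyp26b1, Rara and Rarg. With 5 in place of 0.5 added to each count, Cyp26b1 over Cyp26a1 was 86.8-fold (637-fold) and Aldh1a3 over Aldh1a2 4.55-fold (9.50-fold). Other enzymes of synthesis and clearance detected were 1 of 8, 2 at 0.5 CPM, and 1 to 2 with 1 replicate left out. Of 312 values recomputed, 292 were counted as unchanged. Ratios among them kept their side of the criterion, and levels moved by less than the spread. All these ratios but Rarb over Aldh1a2 also kept their direction. Rarb over Aldh1a2, called apart in no setting, was −0.0035 on the log2 scale. It ran from −0.55 with 5 added to each count to 1.21 without correction for length. Some numbers of detected genes among the 292 did move. At 2 CPM the dehydrogenases fell from 9 to 7 and the endothelial markers from 3 to 2. At 0.5 CPM response genes rose from 9 to 10, lipid binding proteins from 4 to 5 and endothelial markers from 3 to 4. Unchanged too were all member levels under TMM and DESeq2 scaling and with replicates 1 and 2 averaged. That averaging was chosen after seeing the data, like the Rarb length without Top2b. The low counts of Rarb, Aldh1a2 and Stra6 limit their ratios. No paired analysis was possible because the libraries form 1 group, so that no groups share replicate numbers.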

Other observations

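Outside the comparisons above, the shares of reads that fell in no gene were 5.19%, 5.27% and 6.54% in replicates 1, 2 and 3, and those in more than 1 gene 1.05%, 1.04% and 1.01%. Among the tested genes of the retinoid lists, Cyp1a1 had the largest difference between its highest and its lowest library, at 89.2-fold, with 14, 6 and 602 counts in replicates 1, 2 and 3. Cyp1b1 followed with 727, 607 and 2328 counts. Both are classical targets of the aryl hydrocarbon receptor.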
